A study of Homo sapiens with 3 samples.

Results

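In the chromatin of KBM7 cells, 1764 intervals of the mark H3K4me3 were shared by neighbouring genes. They are 4.86% of the 36293 H3K4me3 intervals narrower than 5000 bp on chromosomes 1 to 22 and X, and the list without the width limit holds 36951 intervals. An interval was counted as shared when it overlapped the windows of 1 kb either side of the gene ends of 2 or more protein-coding genes whose records in the RefSeq annotation do not overlap each other. The members were chosen by measured values, namely their position and width in the H3K4me3 list, so their H3K4me3 fold, width and gap are given as a description. They were set beside 10474 intervals that touched 1 protein-coding gene only, called single-gene intervals here. A further 592 intervals touched genes whose records all overlap and entered neither class, and 23463 touched no protein-coding gene end.

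The KBM7 line was established from human chronic myeloid leukaemia cells, carries the BCR-ABL fusion and is almost haploid. The cells were wild type and untreated. ChIP-seq, which sequences the DNA pulled down with an antibody, gave 1 library for H3K4me3 (Millipore 07-473) and 1 for H3K27ac (Abcam ab4729), beside an input library. Since each mark has a single library, replicate error is unknown and no test between samples could be made. The 95% intervals below are Wilson intervals for shares and order-statistic intervals for medians, and they cover counting error only, since peaks and genes are not replicates.

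H3K4me3 is a methylation laid down at active and poised promoters, mostly on the nucleosomes just inside the gene, and H3K27ac is an acetylation of active promoters and enhancers. Many human genes lie head to head, with starts that face away from each other across a short gap, so that a single CpG-rich stretch can serve as the promoter of both. Such bidirectional promoters are known for genes of DNA repair, of mitochondria and of general upkeep. In a tandem pair both genes are read in the same direction and the gap holds the end of one and the start of the other, while a tail-to-tail pair has no start in its gap.

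The stretches between the records of 10 head-to-head pairs are shown because they are the sequences that H3K4me3 intervals of the pair cover or border. They come from RefSeq (GRCh38.p14), on the plus strand, from the base after the left record to the base before the right one. Capitals mark motif letters, searched on both strands: ETS (CCGGAAG), NRF1 (GCATGCG), NFY (CCAAT), SP (GGGCGG), YY1 (GATGGCG), ZNF143 (ACTACAA), CRE (TGACGT), E-box (CACGTG) and TATA box (TATAAA). No motif contains the letters of another, though matches may overlap at their edges. A match is a description of the letters, not a binding site.
HARS1/HARS2, chr5:140691371-140691454: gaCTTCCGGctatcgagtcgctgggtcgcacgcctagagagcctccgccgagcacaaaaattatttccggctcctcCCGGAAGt
KBTBD4/NDUFS3, chr11:47578971-47579073: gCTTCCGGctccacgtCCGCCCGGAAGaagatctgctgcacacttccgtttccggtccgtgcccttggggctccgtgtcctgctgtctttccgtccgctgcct
EIF2B1/GTF2H3, chr12:123633687-123633828: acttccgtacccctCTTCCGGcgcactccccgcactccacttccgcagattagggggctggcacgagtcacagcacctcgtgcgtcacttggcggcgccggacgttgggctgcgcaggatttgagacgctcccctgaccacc
SARS2/MRPS12, chr19:38930764-38930943: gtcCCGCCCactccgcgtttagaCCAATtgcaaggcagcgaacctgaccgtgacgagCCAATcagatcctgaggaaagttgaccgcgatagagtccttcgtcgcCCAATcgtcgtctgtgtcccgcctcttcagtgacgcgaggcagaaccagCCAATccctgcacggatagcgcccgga
RARS2/ORC3, chr6:87589988-87590134: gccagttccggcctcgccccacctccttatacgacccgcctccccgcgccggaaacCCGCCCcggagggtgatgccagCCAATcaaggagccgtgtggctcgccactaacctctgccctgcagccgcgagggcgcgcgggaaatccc
LIG4/ABHD13, chr13:108218350-108218391: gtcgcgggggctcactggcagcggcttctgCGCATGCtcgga
FAU/MRPL49, chr11:65122135-65122182: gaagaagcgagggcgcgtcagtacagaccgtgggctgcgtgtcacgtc
TRAPPC3/MAP7D1, chr1:36156054-36156159: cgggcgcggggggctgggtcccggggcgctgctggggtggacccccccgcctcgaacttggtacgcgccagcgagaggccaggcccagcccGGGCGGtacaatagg
TK1/AFMID, chr17:78187205-78187361: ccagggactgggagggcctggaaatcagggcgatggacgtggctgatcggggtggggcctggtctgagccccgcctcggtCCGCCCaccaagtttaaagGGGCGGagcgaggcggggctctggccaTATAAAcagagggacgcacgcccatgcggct
TSC1/GFI1B, chr9:132945379-132945530: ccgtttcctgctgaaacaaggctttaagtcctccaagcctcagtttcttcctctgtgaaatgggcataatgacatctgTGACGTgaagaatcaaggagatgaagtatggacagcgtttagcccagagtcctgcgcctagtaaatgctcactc
The pair of histidyl-tRNA synthetase genes had the ETS letters at both edges of its 84 bp gap, and KBTBD4/NDUFS3 had them at 2 places near one edge, the second overlapping SP letters. The gap of SARS2/MRPS12 held CCAAT letters at 4 places. The gap of FAU/MRPL49 held none of the motifs. TSC1/GFI1B had the lowest GC content of these stretches (47.4%), and TRAPPC3/MAP7D1 the highest (77.4%).

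Most of the shared intervals with known gene directions lay at head-to-head pairs. The RefSeq promoter table gave a strand for 15812 of 19974 protein-coding genes, and for both genes of the closest pair at 1296 intervals. Of these 792 were head-to-head (61.1%, 58.4 to 63.7), 443 tandem (34.2%, 31.6 to 36.8) and 61 tail-to-tail (4.71%, 3.68 to 6.0). Head-to-head pairs also lead among close neighbours in the annotation, whatever their marks. Annotated pairs with a gap under 1 kb were 773 head-to-head, 387 tandem and 352 tail-to-tail. The other 468 of the 1764 shared intervals were described without a direction. Both facing gene ends were covered by 76.0% of head-to-head, 42.2% of tandem and 26.2% of tail-to-tail intervals. Inside 66.3% of head-to-head intervals lay 2 or more annotated starts, against 4.97% of tandem and 8.20% of tail-to-tail intervals. With windows at start sites only, 706 intervals remained, of which 97.5% were head-to-head. That setting keeps only genes with a strand and asks for starts close together. It favours head-to-head pairs by construction, so this share is no support for the one above.

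The pairs were close together. The shortest gap between gene records had a median of 184 bp at head-to-head intervals (interquartile range 104 to 310), 791 bp at tandem and 325 bp at tail-to-tail intervals, and it ranged from 0 to 3850 bp over all members. The windows favour short gaps by construction. Most intervals touched 2 genes (1618), 138 touched 3 and 8 touched 4. The 1764 intervals belong to 1582 closest pairs, and 177 pairs had more than 1 interval (359 intervals in all), so intervals of a pair share their genes. Relative to their gene content, chromosomes 16 and 19 had the most, with 13.3 and 13.2 shared intervals per 100 protein-coding genes, and chromosome 13 had the fewest, with 4.44.

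H3K4me3 joined the starts of head-to-head genes in most annotated pairs up to a gap of 1 kb, which was counted from the annotation and not from the window rule. Intervals of 5000 bp or more count here, unlike among the members. Of 773 head-to-head pairs with a gap under 1 kb, 647 (83.7%, 80.9 to 86.1) had both starts inside the same interval, 53 had them in separate intervals, 27 had H3K4me3 over 1 start and 46 over neither. Below 200 bp the joint share was 89.5% (400 of 447), from 200 to 500 bp 76.7% (207 of 270), from 500 to 1000 bp 71.4% (40 of 56), and from 1 to 2 kb 35.4% (17 of 48, 23.4 to 49.6). From 2 to 5 kb 3 of 134 pairs shared an interval. Tandem pairs under 1 kb had an interval over both facing ends in 165 of 387 cases (42.6%, 37.8 to 47.6), and tail-to-tail pairs in 17 of 352 (4.83%, 3.04 to 7.6). At 325 of these tail-to-tail pairs neither end was covered. Gene activity was not measured in these files, so pairs of silent genes are part of each denominator.

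**Figure D1:**
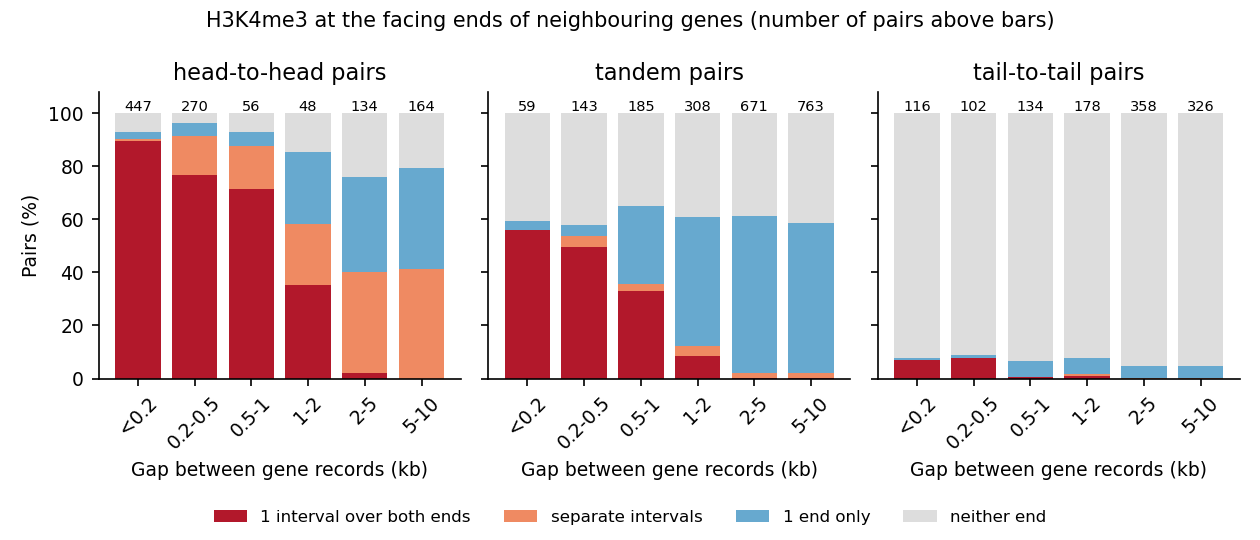
Share of neighbouring protein-coding gene pairs (vertical axis, percent) by the gap between their records (horizontal axis, kb) and by how H3K4me3 covered the facing ends, with the number of pairs above each bar. One interval over both ends was most frequent at head-to-head pairs below 200 bp (89.5%) and nearly absent beyond 2 kb, and it was rare at tail-to-tail pairs at every gap. Intervals of any width count.

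Both facing starts were covered by 602 of the 792 head-to-head intervals (76.0%). In these, which reach into both genes by that choice, the median reach was 1510 bp into each gene (1148 to 1870.75), with 1202.5 bp on the shorter and 1822.5 bp on the longer side. Single-gene intervals over a start (6535) reached 1664 bp into the gene and 659 bp upstream. At 1000 bp to the left of the midpoint 83.7% of head-to-head intervals were present, and 1000 bp upstream of the start 23.3% of single-gene and 34.9% of tandem intervals. On the gene side the 3 classes were close, at 85.5%, 82.8% and 86.8%. Tandem members must meet the window of the upstream gene's end, while single-gene intervals touch no second gene. The difference between these classes upstream therefore follows in part from the rule. Widths below 5000 bp bound all these reaches.

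**Figure D2:**
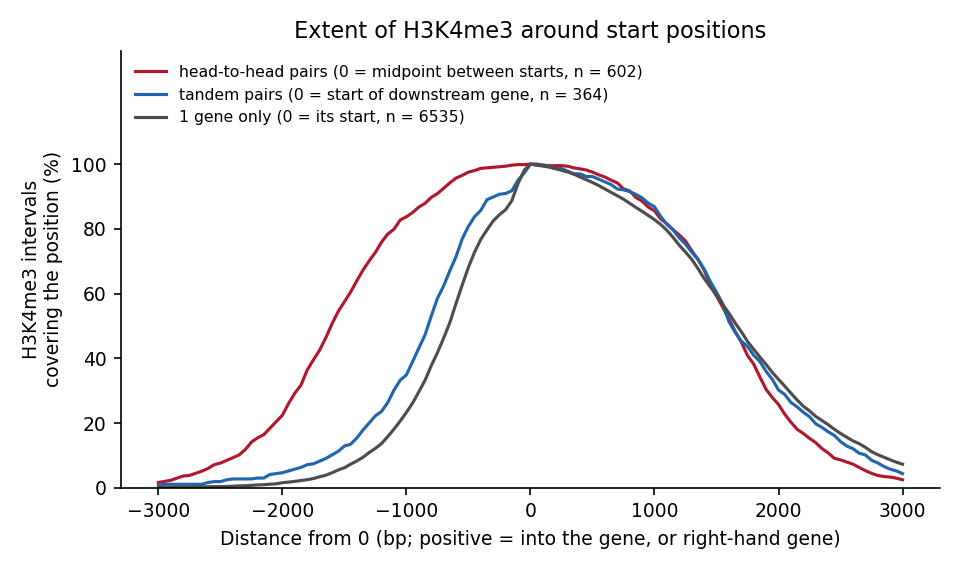
Percent of H3K4me3 intervals (vertical axis) that cover each distance in bp (horizontal axis) from the midpoint of a head-to-head gap, from the start of the downstream gene of a tandem pair, or from the start of a single gene, among intervals that cover those starts. The head-to-head curve is broad on both sides, and the others fall off upstream of the start.

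The H3K4me3 summit lay between the records at 136 of 1764 shared intervals (7.71%, 6.55 to 9.05) and on the side of a gene at the others. In the report a summit at or beyond the facing end of a record is said to lie in that gene. The far end of the record was not checked. At head-to-head intervals the H3K4me3 summit was in the left gene in 390, in the right gene in 385 and between the records in 17 cases (2.15%, 1.34 to 3.41), where the median gap is 184 bp and the median width 3013 bp. At tail-to-tail intervals it was between them in 12 of 61 (19.7%, 11.6 to 31.3). It stood a median of 267.5 bp inside the nearest start (203 to 379) at the 602 intervals over both starts. Single-gene summits stood 264 bp inside the start (171 to 415), and 8.29% of them lay upstream. At tandem intervals the summit was in the downstream gene in 348 of 443 cases (78.6%), in the upstream gene in 36 and between them in 59. These 407 upstream genes are touched at their end, and 332 of them (81.6%) had H3K4me3 within 1 kb of their own start. The other 75 had none there. Over all genes with a strand the share was 67.5%. The tandem interval itself was counted where it lay within 1 kb of that start, so the 81.6% follows in part from how these genes were chosen.

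By name, 14 of 40 textbook or listed neighbour pairs shared an interval by the rule. Another 2 shared one of 5000 bp or more, 10 have overlapping records and 14 had none. Sharing by the rule does not require an interval to cover both starts, and at TK1/AFMID neither interval did. The pairs left out for width were HSPD1/HSPE1, the subunits of the mitochondrial chaperonin, and PRKDC/MCM4, a DNA repair kinase and a helicase of replication. The 3 type IV collagen pairs COL4A1/COL4A2, COL4A3/COL4A4 and COL4A5/COL4A6 had no H3K4me3 at any of their genes. CCT4/FAM161A and XRCC5/SMARCAL1 had the mark at both genes but no shared interval.

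Among pairs of DNA repair and replication, NPAT/ATM had 2 intervals, of 2648 bp (chr11:108220057-108222704) and 3238 bp (chr11:108222745-108225982). NPAT activates histone genes, ATM is the kinase of DNA double-strand breaks, and the records are 428 bp apart. The first had an H3K4me3 fold of 55.2 and an H3K27ac fold of 24.0, with both summits in NPAT. The second had an H3K4me3 fold of 56.5, from 232 fragments at the summit, and an H3K27ac fold of 28.8, with both summits in ATM. TMEM258/FEN1, an oligosaccharyltransferase subunit and the flap endonuclease, had an H3K4me3 fold of 82.0 with the summit in FEN1 and an H3K27ac fold of 34.9 with the summit between the genes. RARS2/ORC3, a mitochondrial arginyl-tRNA synthetase and an origin recognition subunit, had an H3K4me3 fold of 61.6, and its H3K27ac fold of 8.64 was below the lower quartile of the members (16.4). TK1/AFMID, thymidine kinase and a kynurenine formamidase, also had 2 intervals, one with folds of 59.4 and 23.3 and both summits in TK1, the other with 67.3 and 17.2 and both summits in AFMID.

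Among pairs of mitochondria and translation, SARS2/MRPS12, a mitochondrial seryl-tRNA synthetase and a mitochondrial ribosomal protein, had an H3K4me3 fold of 52.8 with the summit in MRPS12 and an H3K27ac fold of 32.8 with the summit in SARS2. HARS1/HARS2 was split the other way, with H3K4me3 (51.3) highest in HARS1 and H3K27ac (14.4) highest in HARS2. FAU/MRPL49, a ribosomal fusion gene and a mitochondrial ribosomal protein gene 48 bp apart, had 65.9 in FAU and 21.0 in MRPL49. KBTBD4/NDUFS3, with a subunit of complex I, had both summits in NDUFS3 (69.3 and 31.0). SURF1/SURF2 had the lowest values of the listed pairs (35.3 and 7.75). TAP1/PSMB9, a peptide transporter and an immunoproteasome subunit of antigen presentation, had folds of 79.0 and 26.7, and SH3YL1/ACP1 had 75.3 and 29.2. PDCD10/SERPINI1, with a gap of 828 bp, was the only listed pair with the summits of both marks between the genes (73.2 and 24.9). PREPL/CAMKMT had folds of 57.5 and 28.3.

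The highest H3K4me3 fold of the members was at ZBTB32/KMT2B (chr19:35715408-35719697), a tandem pair with the summit in KMT2B, an H3K4 methyltransferase (fold 105, 310 fragments). NOL9/TAS1R1 joins a ribosome biogenesis kinase with a taste receptor gene and had a fold of 104 with the summit in NOL9. ARL16/HGS, NAA10/RENBP and AKAP8L/WIZ followed at 102 each. Their expected backgrounds were 1.92 to 1.98, against a median of 2.90 over the members, so low background goes with these high folds. The highest H3K27ac folds were at TRAPPC3/MAP7D1 (59.5, chr1:36155066-36158463), USP5/TPI1 (55.5, in TPI1, a glycolytic enzyme gene), KCTD10/UBE3B (54.1), ST7L/CAPZA1 (50.7) and MEPCE/PPP1R35 (50.4).

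Near the edges of the rule, the widest members were RGS19/OPRL1 and SEC31A/THAP9 (4978 bp each) and KDM5A/CCDC77 (4976 bp). Just outside were RAD1/BRIX1 (5003 bp), DHX29/MTREX (5009 bp) and ZBTB41/CRB1 (5013 bp), among 143 otherwise qualifying intervals of 5000 bp or more. The H3K4me3 folds of the inner 3 were 81.4, 48.9 and 77.2 and those of the outer 3 were 54.7, 65.9 and 52.1. Records abutted with a gap of 0 bp at TOMM6/USP49, TSGA10/LIPT1, TRPT1/NUDT22 and SNORC/NGEF. TOMM6/USP49 had a second interval of 186 bp that rests on 9 fragments (fold 3.28). Of the intervals touching 4 genes, the strongest was at MMP24-AS1-EDEM2, MMP24, MMP24OS and EIF6 (fold 74.8). OGG1, TADA3, ARPC4 and ARPC4-TTLL3 shared one at 73.8 with the summit in ARPC4, an actin nucleation gene. MKKS/SLX4IP (73.6), FKBP2/PPP1R14B (69.3) and KDM6B/TMEM88 (56.2) were the next, each touching 4 genes, and in such clusters the closest pair is not always the pair whose starts are marked.

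H3K27ac, which the rule did not use, was present at nearly every shared interval. It overlapped 1698 of 1764 (96.3%, 95.3 to 97.0), against 8992 of 10474 single-gene intervals (85.9%, 85.2 to 86.5) and 83.5% of all 36293 intervals under the width limit. Single-gene intervals that hold an annotated start reached 90.2% (89.4 to 90.9). By direction the share was 96.8% at head-to-head, 97.5% at tandem and 91.8% at tail-to-tail pairs. H3K27ac covered a median of 82.8% of a shared interval that had it. The median fold of the strongest H3K27ac peak was 23.2 (22.4 to 24.0) at shared, 20.6 (20.3 to 20.9) at all single-gene intervals and 22.5 (22.1 to 22.8) at those that hold a start. The last interval overlaps that of the shared ones.

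Width and H3K4me3 fold differed with the class used for comparison. Against all single-gene intervals, the shared ones had a median width of 2666.5 bp against 2101 bp, an H3K4me3 fold of 61.5 against 55.7, and 257 against 236 fragments at the summit. Against the 6395 single-gene intervals that hold an annotated start, the order of the H3K4me3 fold turned, with 61.5 (60.3 to 62.8) at shared and 63.7 (63.1 to 64.3) at single-gene intervals, and these had 254 fragments and a width of 2422 bp. A wider interval meets the windows of 2 genes more easily, so the width follows in part from the rule. Among intervals of 1 to 2 kb, H3K27ac was present at 95.8% of shared (93.0 to 97.5) and 80.4% of single-gene intervals (78.9 to 81.8), and below 1 kb at 76.3% (69.9 to 81.7) and 60.7% (58.6 to 62.7). From 2 to 3 kb the shares were 99.1% and 97.3%, and above 3 kb both classes were between 99.6% and 100%. Head-to-head intervals below 1 kb had 61.9% (26 of 42), close to the single-gene value. The order of the H3K27ac folds turned with width. From 1 to 2 kb the median was 17.2 at shared and 15.2 at single-gene intervals, while from 4 to 5 kb it was 27.5 (26.3 to 28.5) at shared and 30.2 (29.6 to 31.3) at single-gene intervals. Split into 4 bins by H3K4me3 fold, the shared median was higher in each, from 13.0 against 10.5 in the lowest bin to 28.7 against 27.1 in the highest.

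**Figure D3:**
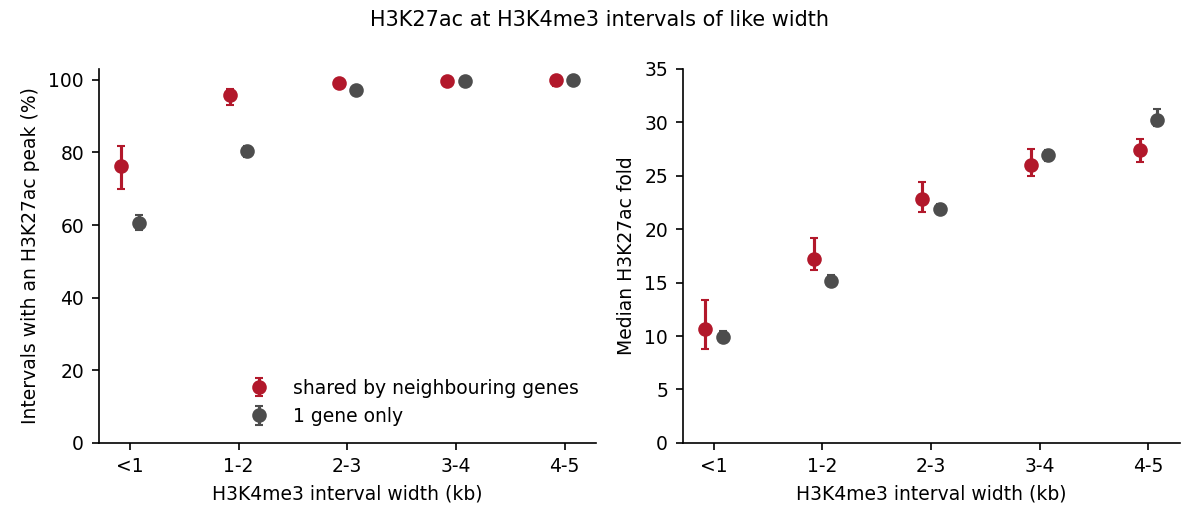
Percent of H3K4me3 intervals with an H3K27ac peak (left, 95% Wilson bars) and median fold of the strongest H3K27ac peak (right, 95% order-statistic bars) against interval width in kb, for shared and single-gene intervals. The shares differ below 2 kb and meet above 3 kb, and the median fold of shared intervals is the lower one from 4 to 5 kb.

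The 66 shared intervals without H3K27ac were mostly narrow and weak, with a median width of 451 bp and a median H3K4me3 fold of 11.1 (34 fragments), and 25 were head-to-head. The strongest was at LOC105373989/INHBB, with a subunit of activin (fold 55.4, chr2:120344294-120346999). NAP1L3/FAM133A on chromosome X, 102 bp apart, had 48.7 with 169 fragments, FOXN4/MYO1H 48.2, HES3/GPR153 47.6 and TOM1L2/DRC3 47.0. TOM1L2/DRC3 had a second interval with a summit in TOM1L2, an H3K4me3 fold of 60.3 and an H3K27ac fold of 6.66. FOXN4 and HES3 encode developmental transcription factors.

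The marks often peaked in different genes of a head-to-head pair. At 688 head-to-head intervals neither summit lay between the records. Both were on the side of the same gene at 488 (70.9%, 67.4 to 74.2) and of opposite genes at 200 (29.1%). The summits were a median of 46 bp apart in the first case and 629.5 bp in the second. The H3K27ac summit lay between the records at 76 of 767 intervals (9.91%). TRAPPC3/MAP7D1 is an example of opposite summits, with H3K4me3 highest in MAP7D1 (fold 78.3) and H3K27ac in TRAPPC3.

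The share of pairs with both starts in the same H3K27ac peak did not follow one direction along the gap. Over all annotated head-to-head pairs with both starts in peaks of a mark, gaps below 100 bp had both starts in one H3K27ac peak in 147 of 151 pairs (97.4%, 93.4 to 99.0). From 150 to 250 bp the share was 36.0% (49 of 136, 28.4 to 44.4), and from 300 to 500 bp it was 69.1% (56 of 81, 58.4 to 78.1). For H3K4me3, with intervals of any width, the shares were 100% (178 of 178), 91.6% (164 of 179, 86.6 to 94.9) and 80% (80 of 100, 71.1 to 86.7). The lowest H3K27ac bin was 200 to 250 bp, at 33.3% (22 of 66), beside 85.4% for H3K4me3. From 500 to 1000 bp H3K27ac joined 38.6% (17 of 44, 25.7 to 53.4), which overlaps the lowest bin (23.2 to 45.3). The bins above 300 bp hold few pairs, and no test of this order was made. A like order stood within the members that covered both starts, at 81.7% joint H3K27ac below 100 bp, 32.5% from 200 to 300 bp and 71.2% from 300 to 500 bp, with median H3K27ac folds of 22.8, 24.3 and 25.5. Above 500 bp it was 33.3% (14 of 42, 21.0 to 48.4), as low as from 200 to 300 bp. In those the denominator includes intervals with acetylation over 1 start or neither.

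**Figure D4:**
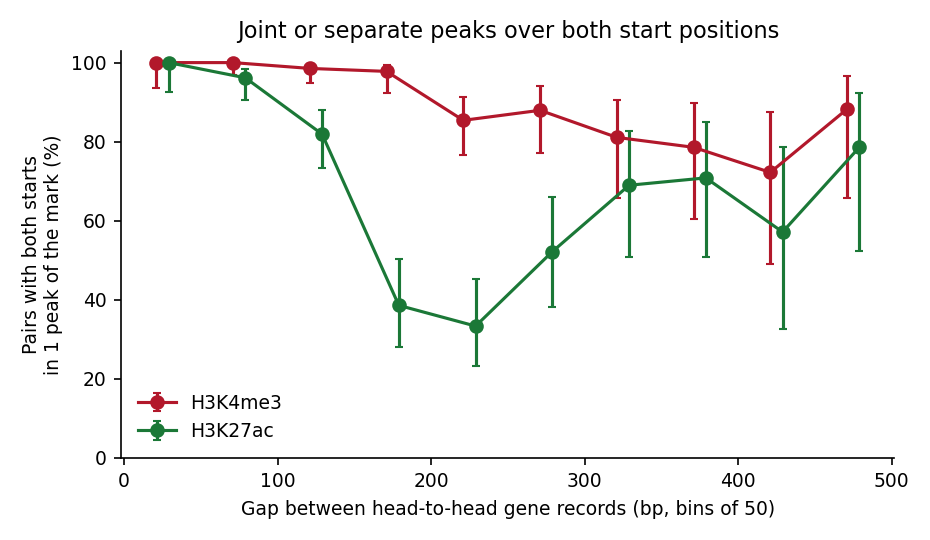
Percent of head-to-head pairs (vertical axis, 95% Wilson bars) whose starts lie in the same peak of a mark, among pairs with both starts in peaks of that mark, by the gap between the records in bins of 50 bp (horizontal axis). H3K27ac is at 33.3% from 200 to 250 bp and at 57.1% to 78.6% from 300 to 500 bp, where the plot ends, while H3K4me3 stays at 72.2% or more.

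Single starts were covered by H3K27ac less often than the starts of head-to-head pairs. It lay over 5124 of 6535 single starts under H3K4me3 (78.4%, 77.4 to 79.4) and over 1049 of 1204 head-to-head starts (87.1%, 85.1 to 88.9). The paired starts share intervals and are not independent. They come only from the 602 intervals over both starts, which had a median width of 3272.5 bp. Among single-gene intervals H3K27ac presence rose with width, from 60.7% below 1 kb to 100% from 4 to 5 kb. The sets of starts were not matched for width.

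Few shared intervals lay in super-enhancers, long regions joined from H3K27ac peaks. In the authors' table of these regions, 25 members were inside one (1.42%, 0.962 to 2.08), against 320 single-gene intervals (3.06%, 2.74 to 3.4) and 9.77% of all intervals under the width limit. Of single-gene intervals that hold a start 111 were inside one (1.74%, 1.44 to 2.09), a share whose interval overlaps that of the members. From 1 to 2 kb the shares were 1.94% and 1.91%, and from 4 to 5 kb 1.91% and 7.03%. Only 2 of the 25 were head-to-head, ASPRV1/PCBP1 (rank 39, the latter an RNA-binding protein gene) and SERTAD2/LOC124907776 (rank 157). The members with the highest H3K27ac fold in such regions were ENO2/ATN1 (44.9, with an H3K4me3 fold of 7.24), BCKDHA/B3GNT8 (43.7), TGFB1/B9D2 (40.7, rank 65), KLF16/ABHD17A (40.3) and ATN1/C12orf57 (38.9, a peak also touched by 2 intervals at C12orf57/PTPN6). At TGFB1, the gene of a growth-restraining cytokine, the H3K4me3 interval was 4532 bp wide (chr19:41350172-41354703). For 16 of the 25 the authors' target gene was one that the interval touched.

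Promoters at shared intervals held the ETS letters more often than those at single-gene intervals at a like base composition. The median GC content of the 300-base promoter (250 bases before the start and 50 after) was 65.3% for 2605 genes at shared and 66.0% for 6964 genes at single-gene intervals, with a median of 26 and 27 CpG. The ETS letters, bound by factors such as GABPA, stood in 25.8% (24.2 to 27.6) and 16.1% (15.3 to 17.0), in 29.1% (26.8 to 31.5) of 1424 head-to-head promoters, in 14.2% of all protein-coding promoters and in 10.3% of all 35116 promoters of the table. In tandem pairs they stood in 25.3% of 407 downstream promoters (21.3 to 29.7). Upstream genes, touched at their end, had them in 17.4% (14.1 to 21.4), near the single-gene share. ZNF143 letters stood in 6.67% of head-to-head, 2.96% of single-gene and 2.77% of all promoters, NRF1 letters in 9.20%, 5.99% and 3.91%, and YY1 letters in 9.97%, 6.61% and 4.20%. CRE letters stood in 14.4%, 11.2% and 7.98%, NFY letters in 42.3%, 35.1% and 34.6%, and E-box letters in 11.0%, 9.82% and 7.26%. SP letters were near equal at 73.0% and 71.5%, beside 45% of all promoters. The TATA letters were at 4.00%, 5.87% and 11.5%. In 528 of 712 head-to-head pairs the promoter windows of both genes overlap, so the same letters can be counted for both.

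**Figure D5:**
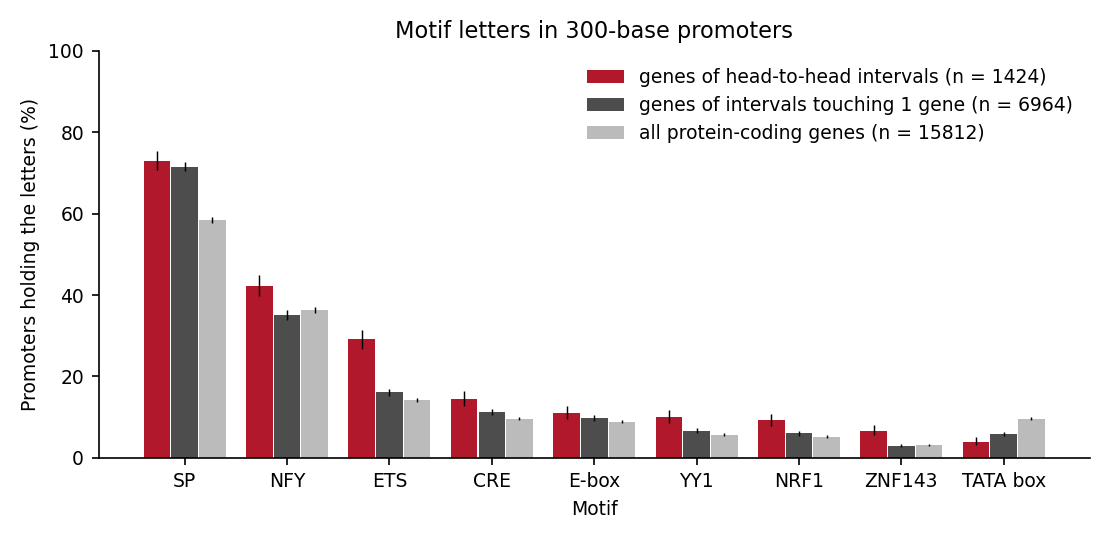
Percent of promoters (vertical axis, 95% Wilson bars) that hold each motif's letters on either strand, for genes of head-to-head intervals, genes of single-gene intervals and all protein-coding genes. The ETS bars are 29.1%, 16.1% and 14.2%, and the SP bars of the first pair of groups are close.

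Within the gaps themselves, a stretch of 30 to 250 bp was read for 414 head-to-head pairs. Pairs on chromosome 8 were left out, as were pairs whose right-hand annotated start is not the end of the record. The median length of the 414 stretches was 129.5 bp and their median GC content 68.6% (61.3 to 74.0). At least 1 of the motifs stood in 87.7%, with SP letters in 58.7%, NFY in 31.4%, ETS in 25.4% and TATA letters in 2.66%. No other stretches of like length and composition were searched, so these shares have no background and only describe the gaps. The 277 head-to-head intervals with ETS letters in either promoter had an H3K4me3 fold of 65.7, the same as the 515 without, and H3K27ac folds of 24.0 and 22.7.

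Of 19974 protein-coding genes, 3115 (15.6%) were touched by a shared interval, or 23.4% of the 13330 (66.7%) touched by any H3K4me3 interval. Of the touched genes, 2502 were touched only by shared intervals, whatever the number of such intervals. Genes of DNA repair and of the mitochondrial ribosome had the largest shares of the 9 lists, and haematopoietic transcription factors the smallest. The lists are described by their counts, with no test. A listed gene may be touched only at its end, and each fold is that of the interval. Of the 3115 genes 1424 belonged to a head-to-head closest pair. The head-to-head counts leave out pairs without a direction.

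Of 40 DNA repair genes 18 were at a shared interval (45%, 30.7 to 60.2), 12 of them head-to-head. LIG4/ABHD13, with the ligase of end joining, had an H3K4me3 fold of 89.0, XRN1/ATR, a tandem pair with the summit in XRN1, 80.8, and DESI1/XRCC6 77.5. Of 77 mitochondrial ribosome genes 33 were (42.9%, 32.4 to 54.0), led by PIERCE1/MRPS2 (96.8), HIRA/MRPL40 (91.4, with a histone chaperone gene) and MRPL51/NCAPD2 (83.4). Of 38 genes of RNA polymerase II and its general factors 14 were (36.8%, 23.4 to 52.7), such as TAF10/TPP1 (97.0), POLR2I/TBCB (78.3) and EIF2B1/GTF2H3 (71.6). Of 37 aminoacyl-tRNA synthetase genes 12 were (32.4%, 19.6 to 48.5), with QRICH1/QARS1 at 92.0, WARS1/WDR25 at 86.8 and EXOSC6/AARS1 at 85.2. QRICH1/QARS1 and EXOSC6/AARS1 are tandem pairs with the summits in QRICH1 and EXOSC6, so both synthetase genes were touched at their ends. Among the genes at shared intervals, 8 of 12 synthetase, 17 of 33 mitochondrial ribosome and 6 of 14 polymerase genes were head-to-head.

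Of 41 chaperone genes 12 were at a shared interval (29.3%, 17.6 to 44.5), 5 of them head-to-head. The strongest were HSPA14 beside CDNF and MSANTD7 (95.7), PFDN5/MYG1 (87.2) and CCT6A/SUMF2 (80.5). PFDN5/MYG1 is a tandem pair with the summit in MYG1, and the summit at CCT6A/SUMF2 was in SUMF2. Of 41 DNA replication genes 11 were at a shared interval (26.8%, 15.7 to 41.9), 7 of them head-to-head. Among these intervals were POLE/PXMP2 at 96.5, CDT1/APRT at 82.5 and FEN1 as above. CDT1/APRT is a tail-to-tail pair with the summit in APRT. Of 33 Mediator genes 7 were at a shared interval (21.2%, 10.7 to 37.8), 2 of them head-to-head. Among these intervals were CXorf38/MED14 at 96.4, SLC35E1/MED26 at 86.2 and MED22/RPL7A at 85.1. The summits of these named intervals lay in CXorf38, SLC35E1 and RPL7A, not in the Mediator genes. Of 40 haematopoietic transcription factors 4 were at a shared interval (10.0%, 3.96 to 23.1), 2 of them head-to-head. Among the 4 were GFI1B beside TSC1 (79.2, summit in TSC1), ELF1/WBP4 (68.5) and STAT5A/STAT3 (30). STAT5A/STAT3 is a tail-to-tail pair with the summits of both marks between the genes. Of 20 neuronal genes 3 were at a shared interval (15%, 5.24 to 36.0), 0 of them head-to-head. These were TUBB3 beside MC1R (73.6), SYP beside PRICKLE3 (69.8, summit in PRICKLE3) and GRIN1 beside LRRC26 (36.9, no H3K27ac). Only 9 of those 20 had any H3K4me3 interval.

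As a check of the cells, all 10 myeloid progenitor markers carried both marks at a gene end, while 3 liver and 3 neuronal markers carried neither. None of 5 erythroid markers carried H3K4me3, and 2 carried H3K27ac. Both marks were also at 2 of 3 T cell and 2 of 3 B cell markers. One of these is CD79A, a B cell receptor gene touched at an interval shared with ARHGEF1, whose summits of both marks lay in ARHGEF1.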

How the data were processed

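H3K4me3 and H3K27ac were profiled in KBM7 cells with 1 library each. The submitters' processing notes name Bowtie2 2.3.4, bedtools 2.20.1 and the build hg38, without saying which step used what. Which program called the peaks is not stated here. For each peak the authors deposited a fold enrichment (a ratio to the background expected there), p- and q-values as −log10, a score and the summit position. The deposited score was not used. The lowest deposited −log10 q of the H3K4me3 list was 1.33. Positions and ranks of super-enhancers came from the authors' table.

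From the fold and p of every peak the number of fragments at the summit was solved on the assumption of a Poisson tail, which no source used here states, within 0.01 on the −log10 scale, for 100% of both lists. H3K4me3 summits held a median of 39 fragments (18 to 221, highest 345) and H3K27ac summits 21 (16 to 42, highest 307). Library depth is not known from these files.

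Gene records came from RefSeq (GRCh38.p14, the build of the files), with strand and promoter sequence from its promoter table for 15812 of 19974 genes. Among these, 83.8% of starts equal the end of the gene record and 9.61% lie over 1 kb from it. In the report a start is the facing end of a record, except where annotated starts are named. Overlap means at least 1 bp. The closest pair of an interval is its non-overlapping pair with the shortest gap. Intervals were named by rule: listed textbook pairs, the highest folds of each mark, members without H3K27ac, the most genes, the widths nearest 5000 bp, the shortest gaps, super-enhancer members and the 3 strongest per gene list (9 lists, 368 genes). HSPB11 was not matched. The values of 1 listed pair are not reported here. CD79A was named as a marker after its values were seen. The members, lists and rules were chosen with earlier results of these data known. Python 3.11.15, pandas 2.3.3, numpy 2.4.6 and SciPy 1.17.1 were used, and the interval classes were tested on simulated data.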

Additional observations from a re-analysis of the deposited data

Results flagged for a closer look

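No comparison used the 45 H3K4me3 peaks that lie outside chromosomes 1 to 22 and X. Their median fold was 11.3 and their highest fold 49.3.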

How the results depend on the processing

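No paired analysis was possible because each mark has 1 library and no replicates. With windows of 500 bp, H3K27ac was at 97.3% of shared intervals, the median H3K4me3 fold was 62.9, the width 2803 bp, the gap 254 bp, the head-to-head share 68.8%, the share of genes 13.7% and that of summits between records 5.49%. With windows of 2 kb the same values were 93.2%, 59.1, 2439 bp, 414 bp, 52.1%, 19.2% and 10.4%, with an H3K27ac fold of 22.4 and 2.11% in super-enhancers. With start sites only (706 intervals, favouring head-to-head pairs) they were 97.5%, 65.7, 3078.5 bp, 197.5 bp, 97.5%, 6.51% and 2.27%, with 0.425% in super-enhancers. For intervals over both facing ends (1051, chosen after seeing the data) they were 98.1%, 65.8, 3123 bp, 199 bp, 74.8%, 10.7% and 2.47%, with an H3K27ac fold of 24.5 and 0.951% in super-enhancers. In the stronger 50% of H3K4me3 peaks H3K27ac was at 97.9%, the fold was 63.5, the width 2767 bp and 5.88% of summits lay between records. Without a width limit the H3K27ac fold was 24.1, the width 2789 bp and the share of genes 17.0%, and with exactly 2 genes the last was 13.9%. H3K27ac over 50% of the interval was at 91.8%, and the stronger 50% of H3K27ac peaks at 95%. Head-to-head promoters held ETS letters in 29.1%, NRF1 in 9.20%, NFY in 42.3%, CRE in 14.4% and TATA in 4.00%. Promoters with the start inside the interval (chosen after seeing the data) held ETS letters in 30.3%, SP in 76.3% and TATA in 4.36%. Single-gene promoters with the start inside held them in 17.7%, 75.2% and 5.07%. Shared intervals were above all single-gene intervals in 9 of 9 settings for H3K27ac presence and in 7 of 7 for the H3K27ac fold, and below them in 8 of 8 for super-enhancers. Set against single-gene intervals that hold a start, the H3K4me3 fold was lower at shared intervals (61.5 against 63.7), and the intervals of the H3K27ac fold and of the super-enhancer share overlapped. The width and fold bands were also chosen after seeing the data. Reads per library are unknown, summit fragments limit the weak peaks, and the window rule counts gene ends as well as starts.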
